A study of Mus musculus with 15 samples.

Results

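Tumor macrophage genes are described here as a set of 37 genes chosen by name for their known expression in macrophages, and all 37 were among the 18279 genes of the expression table. RNA sequencing had been done on 15 subcutaneous tumors of Renca cells, a renal carcinoma line of BALB/c mice. Female BALB/c mice, 4 to 6 weeks old when bought, received the cells in Matrigel under the skin of the back. The 5 control tumors are numbered 1 to 5. Their sample records name parental Renca cells, whereas the study describes control knockout cells. Tumors 6 to 10 grew from *Pbrm1* knockout clone 4 and tumors 11 to 15 from *Pbrm1* knockout clone 18. *Pbrm1* encodes a subunit of a chromatin remodeling complex of the SWI/SNF family. Tumors were taken at a volume of 1000 mm3 or earlier for ulceration or distress, and the records do not tell which mice, if any, had been given PD-1 antibody. Each group came from 1 cell line, the knockout lines being clones grown from sorted single cells, so that loss of *Pbrm1* and other differences between the lines cannot be told apart. The host kept its own *Pbrm1*, since the deletion was made in the injected cells and not in the mouse whose macrophages entered the tumor.

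Macrophages of tumors derive in large part from blood monocytes that mature in the tissue, beside cells that were resident there before. Their survival depends on CSF1R, a receptor tyrosine kinase that binds the ligands CSF1 and IL-34, and their identity on the transcription factor PU.1, the product of *Spi1*. They take up dying cells and antibody-coated targets through Fc and scavenger receptors, digest them in lysosomes, make the C1q proteins that start the classical complement pathway, and secrete matrix proteins and proteases. The 37 genes fall by role into 9 identity genes, 3 C1q genes, 7 genes of Fc receptors and receptors that signal through ITAM adapters, 9 scavenger receptor and resident macrophage genes, 8 lysosomal, lipid or secreted genes, and *Cybb* of the NADPH oxidase. Several, among them *Spp1*, *Lgals3*, *Cd68*, *Ctsb*, *Ctsd* and *Apoe*, are also made by other cells, carcinoma cells included, and a bulk tumor sample does not tell their source.

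Reads counted on genes numbered 32924414 to 49099168 per tumor (median 40860659). Values below are normalized counts, the reads of a gene divided by a size factor of the tumor. *Pbrm1* itself was 7452 to 9871 in the control tumors and 2484 to 3138 in the knockout tumors, with no overlap. Macrophage markers were detected in all tumors: 36 of the 37 genes had a mean of at least 10 normalized counts, and the exception was *Marco*, a scavenger receptor of splenic and alveolar macrophages, which was 0 to 31.6. Among the control tumors, tumor 1 had the highest value in 23 of the 37 genes and tumor 2 the lowest in 22. Skeletal muscle RNA was present in 5 knockout tumors, numbers 9, 10, 11, 14 and 15, in which *Acta1*, a muscle actin gene, was 273.1 to 720.5 against 0 to 39.5 in the other 10 tumors. Its part in the results was not tested. A fit without these 5 tumors kept 5 knockout tumors, and its values are given for the members and list genes whose named call it changed.

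Of the 37 macrophage genes, 30 had a lower mean log2 value in the knockout tumors and 7 a higher one, against 9659 and 8591 of all 18250 genes tested. The genes that rose past the threshold given next were *Spp1* and *Cd14*. Comparing 10 knockout with 5 control tumors by limma, with p adjusted by the Benjamini-Hochberg method over all 18250 genes tested, 12 of the 37 genes (32.4%) were lower at an adjusted p under 0.05 and 2 (5.41%) were higher. Of all genes tested, 12.9% were lower and 9.23% were higher. The 12 lower genes were *Csf1r*, *Itgam*, *Laptm5*, *C1qa*, *C1qb*, *C1qc*, *Fcgr3*, *Fcer1g*, *Tyrobp*, *Mrc1*, *Apoe* and *Cybb*. The median difference over the 37 genes was -0.34 on the log2 scale, against -0.02 over all genes tested. In bulk tumors, fewer macrophages and less of these RNAs per macrophage cannot be told apart.

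The overlap between groups was wide for the lower genes. None of the 37 had all 10 knockout tumors below all 5 control tumors, a pattern shown by 4.87% of all genes tested, and 2, *Cd14* and *Spp1*, had all 10 above, against 3.11% of all genes tested. With clone 18 alone set against control, 7 of the 37 lay below all control tumors and 2 above. The share of all genes tested with that clone 18 pattern is not given here, so it only describes the values. Without control tumor 1, 7 genes were past the threshold (5 lower), without control tumor 3, 9 (7 lower), and without control tumor 2, 19 (17 lower). Of all 18250 genes tested, these fits called 3286 (1906 lower), 3227 (1874 lower) and 3219 (1965 lower) in that order. A two-sample test of each gene alone called 9 (7 lower), and 3784 of all genes tested (2154 lower). Without the 5 tumors that held muscle RNA, a choice made after seeing the data, 4 genes were past the threshold, *Itgam* and *C1qc* lower and *Cd14* and *Spp1* higher, while the median difference over the 37 genes was -0.30. That fit called 3073 of all 18250 genes tested, 1840 lower and 1233 higher. In that fit *Csf1r* differed by -0.52 ± 0.17 (adjusted p = 0.0576), *Laptm5* by -0.36 ± 0.12 (adjusted p = 0.0647), *C1qb* by -0.34 ± 0.11 (adjusted p = 0.0523) and *Cybb* by -0.63 ± 0.22 (adjusted p = 0.0682). The calls of *C1qa*, *Fcgr3*, *Fcer1g*, *Tyrobp*, *Mrc1* and *Apoe* were lost too (adjusted p = 0.121, 0.171, 0.142, 0.126, 0.205 and 0.108).

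**Figure D1:**
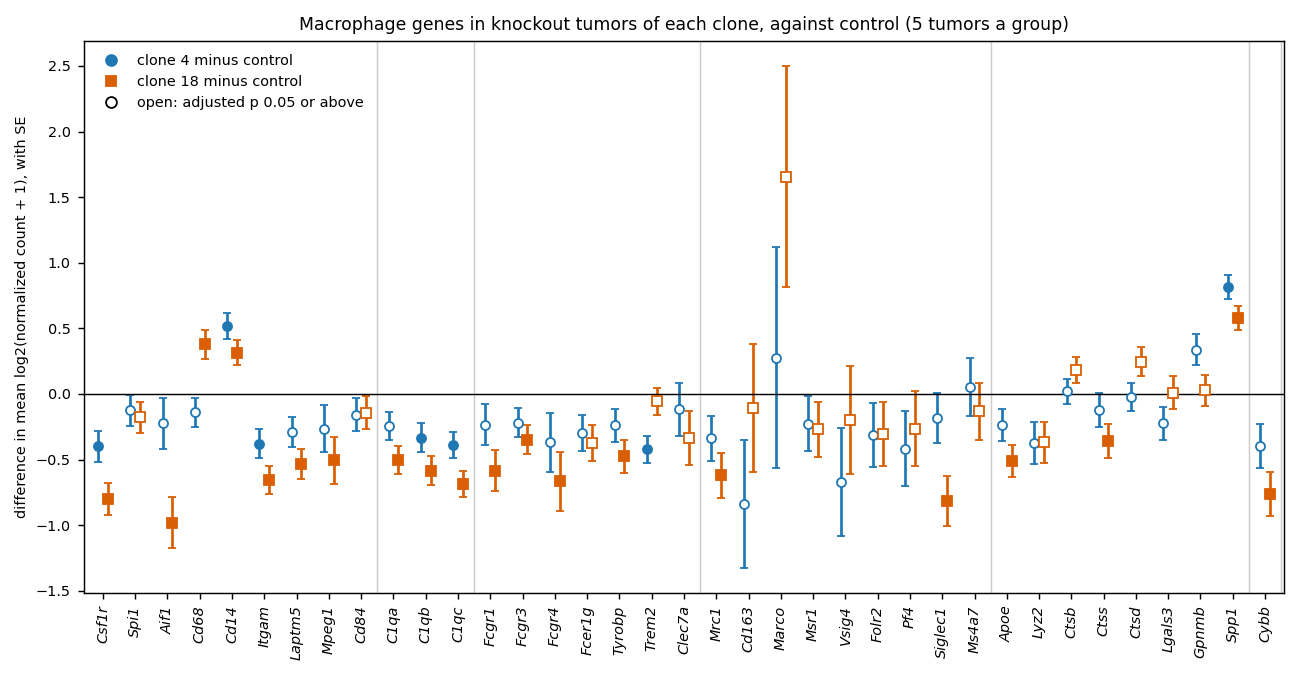
Difference in mean log2(normalized count + 1) from the 5 control tumors for the 37 macrophage genes, ordered by role, in the 5 clone 4 tumors (circles) and the 5 clone 18 tumors (squares), with the SE of the limma fit; filled symbols mark an adjusted p under 0.05. *Spp1* and *Cd14* lie above 0 in both clones, and *Csf1r*, *Itgam*, *C1qb* and *C1qc* below 0, with filled symbols in each; both comparisons use the same control tumors.

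Among the identity genes, *Csf1r* fell in knockout tumors. The count of *Csf1r* was 21326, 13456, 18108, 12607 and 15555 in control tumors 1 to 5, 12344, 14087, 12238, 11105 and 10799 in clone 4 tumors 6 to 10, and 8827, 9882, 8019, 9894 and 9123 in clone 18 tumors 11 to 15. All clone 18 tumors were below all control tumors, and 4 of the 5 clone 4 tumors were below the lowest control tumor. The means were 16210.3 ± 3562 (SD, n = 5) in control, 12114 ± 1295 (n = 5) in clone 4 and 9149 ± 787 (n = 5) in clone 18 tumors, so that clone 18 tumors held 56.4% of the control level. The log2 difference between knockout and control was -0.60 ± 0.13 (SE, adjusted p = 0.00331), and an exact two-sided permutation test over the 3003 splits of the tumors gave p = 0.002.

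*Itgam* encodes CD11b, the alpha chain of the integrin Mac-1, which monocytes, macrophages and neutrophils carry. Its count was 6095, 5369, 5511, 4578 and 5271 in control tumors 1 to 5, 3608, 4192, 4122, 3774 and 4988 in clone 4 tumors 6 to 10, and 3455, 4198, 2720, 3565 and 3215 in clone 18 tumors 11 to 15. Here too the clone 18 tumors were all below the control tumors. The log2 difference was -0.52 ± 0.11 (adjusted p = 0.00231; exact permutation p = 0.000999). *Laptm5*, a lysosomal membrane protein of blood cells, read 6665, 4715, 6468, 4759 and 6268 in control tumors 1 to 5, 4835, 4543, 4843, 3789 and 5487 in clone 4 tumors 6 to 10, and 4111, 4634, 3534, 3554 and 3959 in clone 18 tumors 11 to 15. Tumors 1, 3 and 5 stood above the rest, and tumors 2 and 4 lay within the range of clone 4. The knockout tumors differed from control by -0.41 ± 0.11 (adjusted p = 0.0121; exact permutation p = 0.00666). The calls of *Csf1r*, *Itgam* and *Laptm5* held when any of the 15 tumors was left out.

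The count of *Aif1*, which encodes the calcium-binding protein IBA1 of macrophages and microglia, was 2174, 739.8, 1529, 977 and 1292 in control tumors 1 to 5, 1230.5, 1126, 1032, 1034 and 964 in clone 4 tumors 6 to 10, and 649, 716, 611, 586 and 621 in clone 18 tumors 11 to 15. The control tumors spread over a range that covers that of clone 4, and the clone 18 tumors lay below all others. Over both clones *Aif1* missed the threshold (-0.60 ± 0.23, adjusted p = 0.0678), and it passed without tumor 2 (adjusted p = 0.0216) or without tumor 6 (adjusted p = 0.0435). *Spi1*, the gene of PU.1, was 777 to 1172 in control and 749 to 1096 in knockout tumors (-0.15 ± 0.10, adjusted p = 0.328). *Cd84*, an adhesion receptor of the SLAM family, was 1518 to 2271 and 1338 to 2006 (-0.15 ± 0.11, adjusted p = 0.349). Neither gene passed the threshold, and in both the groups overlapped. *Mpeg1*, the gene of the pore-forming protein perforin-2, was 5994 to 13039.5 in control tumors, the lowest being tumors 2 and 4, and 4907 to 8700.5 in knockout tumors (-0.38 ± 0.16, adjusted p = 0.0959). Without tumor 2 or without tumor 4 it passed (adjusted p = 0.0325 and 0.0331).

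*Cd14*, the co-receptor that hands lipopolysaccharide to TLR4, moved the other way. The count of *Cd14* was 6834, 5883, 6487, 6760.1 and 6681 in control tumors 1 to 5, 9443, 8703, 11512, 7569.7 and 9894 in clone 4 tumors 6 to 10, and 8029, 7676, 9154, 7037 and 8834 in clone 18 tumors 11 to 15. Each knockout tumor was above each control tumor, and the control tumors lay close together. The means were 6529 ± 384 (SD, n = 5) in control, 9424 ± 1461 (n = 5) in clone 4 and 8146 ± 859 (n = 5) in clone 18 tumors. The log2 difference was 0.42 ± 0.09 (adjusted p = 0.00352; exact permutation p = 0.00133), and it was past the threshold whichever tumor was left out. *Cd68*, a glycoprotein of late endosomes and lysosomes, missed the threshold over both clones (0.12 ± 0.14, adjusted p = 0.607), and its values are given with the comparison of the clones.

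**Figure D2:**
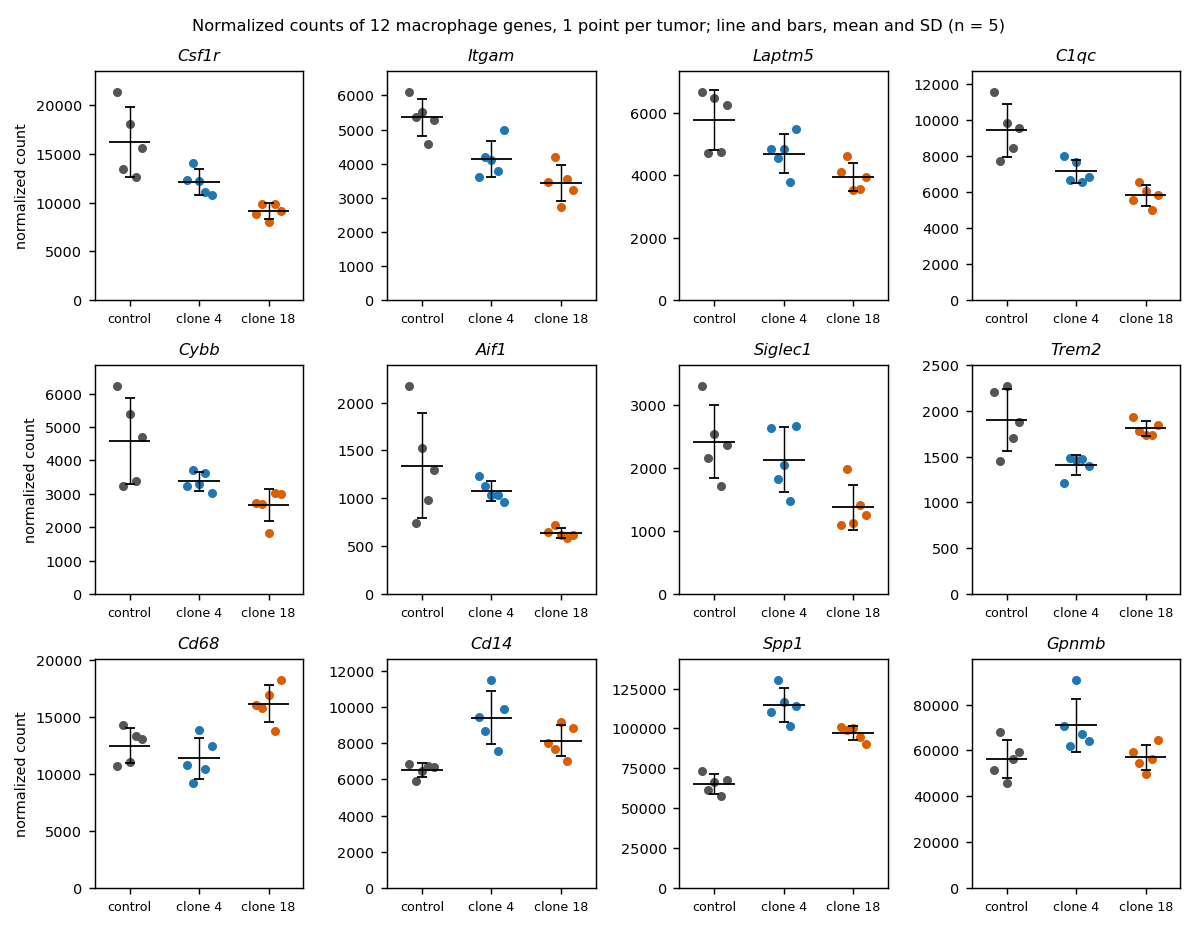
Normalized counts of 12 macrophage genes in each tumor, with the mean and SD of the 5 tumors of a group; each axis starts at 0. Knockout tumors lie above all control tumors for *Cd14* and *Spp1*, clone 18 tumors lie below all control tumors for *Csf1r*, *Itgam*, *Laptm5*, *C1qc*, *Cybb* and *Aif1*, and *Cd68* is highest on average in clone 18. The share of all genes tested with clone 18 below all control tumors is not given here.

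Promoter sequences are shown for 5 genes that fell in knockout tumors and for *Spp1*, which rose, as the stretches of DNA beside which these transcripts start. They are the 300 bases from 250 before to 50 after a start site of the gene, in GRCm38.p6 coordinates of RefSeq, written 5′ to 3′ on the strand of the gene. Capitals mark GAGGAA on either strand (TTCCTC on the other), the core of the sites that PU.1 and other ETS factors bind.
*C1qb* (chr4:136886151-136886450, minus strand): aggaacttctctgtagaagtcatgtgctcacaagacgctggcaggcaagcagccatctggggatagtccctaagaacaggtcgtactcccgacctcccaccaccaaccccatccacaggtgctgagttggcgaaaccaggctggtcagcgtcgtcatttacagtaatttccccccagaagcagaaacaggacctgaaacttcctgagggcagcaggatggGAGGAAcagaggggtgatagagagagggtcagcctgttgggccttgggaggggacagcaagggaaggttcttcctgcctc
*C1qc* (chr4:136892865-136893164, minus strand): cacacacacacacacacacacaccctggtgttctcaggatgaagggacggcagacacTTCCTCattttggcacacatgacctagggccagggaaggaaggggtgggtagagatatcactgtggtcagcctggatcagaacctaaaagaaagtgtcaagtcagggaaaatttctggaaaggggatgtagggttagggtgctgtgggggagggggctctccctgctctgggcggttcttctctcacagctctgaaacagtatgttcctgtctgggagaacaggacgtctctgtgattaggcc
*Itgam* (chr7:128062390-128062689, plus strand): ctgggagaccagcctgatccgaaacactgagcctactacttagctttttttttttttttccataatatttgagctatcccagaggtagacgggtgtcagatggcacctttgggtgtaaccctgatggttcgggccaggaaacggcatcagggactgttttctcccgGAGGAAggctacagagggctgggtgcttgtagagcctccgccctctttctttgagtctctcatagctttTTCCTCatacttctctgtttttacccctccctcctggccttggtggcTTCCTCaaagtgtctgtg
*Laptm5* (chr4:130913066-130913365, plus strand): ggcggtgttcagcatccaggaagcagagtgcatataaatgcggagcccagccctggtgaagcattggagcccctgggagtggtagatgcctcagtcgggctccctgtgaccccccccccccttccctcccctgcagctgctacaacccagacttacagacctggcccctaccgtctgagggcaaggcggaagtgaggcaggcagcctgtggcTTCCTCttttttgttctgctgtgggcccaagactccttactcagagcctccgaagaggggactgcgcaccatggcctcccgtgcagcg
*Cybb* (chrX:9469275-9469574, minus strand): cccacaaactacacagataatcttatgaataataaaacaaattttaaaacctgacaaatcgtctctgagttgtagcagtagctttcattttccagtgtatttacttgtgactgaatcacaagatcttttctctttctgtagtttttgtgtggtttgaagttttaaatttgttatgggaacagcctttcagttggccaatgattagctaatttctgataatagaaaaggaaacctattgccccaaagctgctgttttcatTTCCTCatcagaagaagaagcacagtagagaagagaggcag
*Spp1* (chr5:104434861-104435160, plus strand): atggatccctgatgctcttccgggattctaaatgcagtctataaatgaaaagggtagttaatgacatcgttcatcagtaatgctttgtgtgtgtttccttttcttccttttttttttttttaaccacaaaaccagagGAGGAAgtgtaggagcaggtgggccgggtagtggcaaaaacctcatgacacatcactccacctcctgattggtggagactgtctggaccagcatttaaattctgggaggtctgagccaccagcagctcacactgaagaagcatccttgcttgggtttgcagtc
The first base of the match lay 30 bases before the start site in *C1qb*, 38 in *Laptm5*, 113 in *Spp1* and 193 in *C1qc*, and *Itgam* had 3 matches. In *Cybb* it lay 9 bases after the start site. Another *Spp1* window (chr5:104435942-104436241), not shown, had 0 matches. RefSeq windows were matched for 29 of the 37 genes, 36 windows in all, and 21 of the 29 genes had the motif in at least 1 window. It was present in 24 of the 36 windows (66.7%) and in 9289 of the 32851 windows of that length in the table (28.3%). The genes with the motif include members that fell (*C1qb*, *C1qc*, *Itgam*, *Laptm5*, *Cybb*, *Fcgr3*, *Mrc1*, *Apoe*), the member *Spp1* that rose and others that did not pass the threshold, so a match describes the letters of the window and no more.

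The 3 C1q genes code for the chains of C1q, and lie side by side on the minus strand of chromosome 4, *C1qb* at chr4:136880129-136886187, *C1qc* at chr4:136889804-136893065 and *C1qa* at chr4:136895917-136898803 (GRCm38, GENCODE M21). All 3 fell in knockout tumors. The count of *C1qc* was 11531, 7692, 9814, 8458 and 9558 in control tumors 1 to 5, 7990.4, 6659, 7639, 6547 and 6842 in clone 4 tumors 6 to 10, and 5569.9, 6565, 6058, 5017 and 5856 in clone 18 tumors 11 to 15. That of *C1qb* was 10525, 6855, 8688, 7316 and 8992 in control tumors 1 to 5, 7314, 6124, 7178, 5811 and 6969 in clone 4 tumors 6 to 10, and 5394, 6195, 6278, 4659 and 5548 in clone 18 tumors 11 to 15. That of *C1qa* was 20217, 11948, 17024, 15054 and 15295 in control tumors 1 to 5, 13822, 12854, 13835, 12161 and 13503 in clone 4 tumors 6 to 10, and 11443, 12678, 10542, 9772 and 10960.1 in clone 18 tumors 11 to 15. In each of the 3, tumor 1 was the highest of all and tumor 2 the lowest control tumor. The log2 differences were -0.54 ± 0.10 for *C1qc* (adjusted p = 0.00127), -0.46 ± 0.11 for *C1qb* (adjusted p = 0.00524) and -0.38 ± 0.11 for *C1qa* (adjusted p = 0.0162). In clone 18 tumors the mean was 61.8%, 66.3% and 69.6% of control in that order, and in clone 4 tumors 75.8%, 78.8% and 83.2%. *C1qc* and *C1qb* held with each tumor left out, whereas *C1qa* missed the threshold without tumor 1 (adjusted p = 0.0652).

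Of the 7 Fc and ITAM genes, 3 were lower in knockout tumors (12.9% of all genes tested) and none higher (9.23%), and the median log2 difference was -0.34. ITAM adapters carry the signal of receptors that have no signaling tail of their own: *Tyrobp* encodes DAP12, the adapter of TREM2, and *Fcer1g* the common gamma chain of the activating Fc receptors and of others. The count of *Tyrobp* was 4795, 2736, 4397, 3431 and 4176 in control tumors 1 to 5, 3382, 2927, 3103, 3347 and 3501 in clone 4 tumors 6 to 10, and 3007, 3075, 2971, 2342 and 2464 in clone 18 tumors 11 to 15. Tumors 1, 3 and 5 were the highest, and tumors 2 and 4 lay among the knockout tumors. The difference was -0.36 ± 0.12 (adjusted p = 0.0356; exact permutation p = 0.0167) and missed the threshold when any 1 of tumors 1, 3, 5, 14 and 15 was left out (adjusted p = 0.0541 to 0.127). *Fcer1g* was 1404 to 2189 in control and 1200.1 to 1915 in knockout tumors. It differed by -0.34 ± 0.12 (adjusted p = 0.0489), just under the threshold, and was past it in only 4 of the 15 fits that left out a tumor, missing it when any 1 of tumors 1, 3, 4, 5, 7, 8, 9, 11, 13, 14 and 15 was left out (adjusted p = 0.0576 to 0.149).

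The Fc receptors for IgG lie on chromosome 1, apart from *Fcgr1* on chromosome 3. *Fcgr3*, an activating receptor of low affinity, was 3928 to 6610.3 in control and 4013 to 5364 in knockout tumors, the lowest of all being control tumor 2. It fell by 0.28 on the log2 scale (SE 0.10, adjusted p = 0.0415), a call that was lost when any 1 of tumors 1, 3, 4, 5, 7, 11, 12, 13, 14 and 15 was left out (adjusted p = 0.0549 to 0.145). *Fcgr3* and the inhibitory receptor gene *Fcgr2b* share much of their sequence, so reads may be divided unevenly between them. *Fcgr1*, the receptor of high affinity, was 1265 to 2512 and 902 to 1689.5 (-0.41 ± 0.15, adjusted p = 0.0617), and *Fcgr4* was 187 to 389.9 and 123 to 312 (-0.52 ± 0.20, adjusted p = 0.0761). Neither passed. *Fcgr1* did so without tumor 2 (adjusted p = 0.017) or tumor 6 (adjusted p = 0.0487), and *Fcgr4* without tumor 10 (adjusted p = 0.0187). *Clec7a*, the gene of the beta-glucan receptor dectin-1, was 775 to 2095 and 927 to 1825 (-0.23 ± 0.18, adjusted p = 0.411), the lowest tumor being control tumor 2, without which it passed (adjusted p = 0.0178). *Trem2*, a receptor for lipids and lipoproteins, is given with the comparison of the clones.

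Of the 9 scavenger receptor and resident macrophage genes 1, *Mrc1*, was past the threshold, and it was lower. Of all genes tested 12.9% were lower, and the median log2 difference of the 9 was -0.34. *Mrc1* encodes the mannose receptor CD206, which clears glycoproteins. The count of *Mrc1* was 23979.7, 21599, 21712, 20140.3 and 17491 in control tumors 1 to 5, 21299, 12461, 19335, 12567 and 19052 in clone 4 tumors 6 to 10, and 13363, 20428, 11582, 10959 and 13335 in clone 18 tumors 11 to 15. Tumors 6, 8, 10 and 12 reached the control range and the other 6 knockout tumors lay below it. The difference was -0.48 ± 0.16 (adjusted p = 0.0353; exact permutation p = 0.0243), and the call was lost when any 1 of tumors 1, 2, 3, 4, 7, 9, 11, 13, 14 and 15 was left out (adjusted p = 0.0534 to 0.0996). The count of *Siglec1*, the sialic acid receptor CD169, was 3306, 2168, 2538, 1724 and 2370.5 in control tumors 1 to 5, 2634, 1820.4, 2053, 1479 and 2677 in clone 4 tumors 6 to 10, and 1104, 1979.7, 1131, 1418 and 1253 in clone 18 tumors 11 to 15. The clone 18 tumors other than tumor 12 were below all the other tumors, and over both clones *Siglec1* missed the threshold (-0.50 ± 0.21, adjusted p = 0.0945), passing it without tumor 6 (adjusted p = 0.0457) or tumor 10 (adjusted p = 0.0429).

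*Cd163*, the receptor for hemoglobin bound to haptoglobin, had its highest values in control tumors 2 (1222) and 4 (903.1). The other 3 control tumors were 249.5 to 345.7 and the knockout tumors 109 to 609 (-0.47 ± 0.44, adjusted p = 0.492). *Vsig4*, a complement receptor of resident macrophages, was also highest among control tumors in tumors 2 and 4, at 160.3 and 184.9, with knockout tumors at 39.8 to 166 (-0.43 ± 0.36, adjusted p = 0.439). *Folr2*, a folate receptor of resident macrophages, was 903 to 1387 in control and 512 to 1374 in knockout tumors (-0.31 ± 0.21, adjusted p = 0.32). For *Pf4*, a chemokine gene of platelets that resident macrophages also use, the ranges were 788 to 1003 and 372 to 1302 (-0.34 ± 0.24, adjusted p = 0.355). *Msr1*, the class A scavenger receptor for modified lipoproteins, was 4114 to 5217 and 2704 to 6493 (-0.25 ± 0.18, adjusted p = 0.36). In *Pf4* and *Msr1* the knockout tumors reached past the control range on both sides, and in *Folr2* 6 of the 10 were below it. *Ms4a7*, a tetraspanning membrane protein gene of resident macrophages, was 721 to 1977 and 998 to 1761 (-0.04 ± 0.19, adjusted p = 0.912), and *Marco*, at a mean of 1.5 in control and 6.39 in knockout tumors, gave no difference detectable at this depth (0.97 ± 0.77, adjusted p = 0.412).

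The 8 lysosomal, lipid and secreted genes were all among the first 10 of the 37 in level per kb of exon. Of the 8, 1 fell (12.9% of all genes tested) and 1 rose (9.23%), with a median log2 difference of -0.0030. *Spp1*, the gene of osteopontin, a secreted matrix protein, rose. The count of *Spp1* was 73083, 61158, 66179, 57440.4 and 67480.3 in control tumors 1 to 5, 110131, 130470, 116772, 101351 and 113962 in clone 4 tumors 6 to 10, and 100618, 99279, 100411, 94467 and 90416 in clone 18 tumors 11 to 15. The lowest knockout tumor was above the highest control tumor by more than the whole range of the control group. The means were 65068 ± 6016 (SD, n = 5) in control, 114537 ± 10636 (n = 5) in clone 4 and 97038 ± 4463 (n = 5) in clone 18 tumors, that is 176% and 149% of control. The log2 difference was 0.70 ± 0.09 (adjusted p = 4.36e-05), and the exact permutation p of 0.000333 is the smallest that the 3003 splits can give. An unprocessed transcript annotated inside the gene, *Gm42793*, had 6.7 to 55.0 normalized counts.

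*Apoe*, the gene of the lipoprotein apolipoprotein E, was the member of this role that fell. The count of *Apoe* was 50074, 36129, 47429, 44591 and 45368 in control tumors 1 to 5, 39725, 43477, 37761, 38487 and 30784 in clone 4 tumors 6 to 10, and 32201, 25027, 27429, 34932 and 38124 in clone 18 tumors 11 to 15. Tumor 2 was the lowest control tumor and lay within the range of the knockout tumors. The difference was -0.37 ± 0.12 (adjusted p = 0.031; exact permutation p = 0.0143), and it missed the threshold when any 1 of tumors 1, 3, 4 and 5 was left out (adjusted p = 0.0608 to 0.0924). *Lyz2*, the gene of lysozyme M, was 48768 to 96429 in control and 43629 to 65396 in knockout tumors (-0.37 ± 0.14, adjusted p = 0.0576; exact permutation p = 0.0226), and passed without tumor 2 (adjusted p = 0.0086) or tumor 8 (adjusted p = 0.0497). Its near copy *Lyz1* was 326.4 to 1932, and reads that fit both genes leave the split between them uncertain.

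The 3 cathepsin genes, which encode proteases of the lysosome, were not past the threshold. *Ctss*, which trims the invariant chain in antigen-presenting cells, was 11412 to 20937 and 10901 to 16534 (-0.24 ± 0.12, adjusted p = 0.169; 0.0394 without tumor 2). *Ctsb* was 72463 to 81269.5 and 69797 to 100600 (0.10 ± 0.09, adjusted p = 0.477), and *Ctsd* 59639 to 78475 and 61431 to 91386 (0.11 ± 0.11, adjusted p = 0.512). *Ctsb* overlaps *Fdft1* on the other strand, and whether the reads were counted by strand is not given in the sources used here. *Lgals3*, the gene of the sugar-binding galectin-3, was 31023 to 42268 and 23446 to 39756 (-0.11 ± 0.12, adjusted p = 0.565). *Gpnmb*, a glycoprotein of melanosomes and of lipid-laden macrophages, was 45720.3 to 67902 and 49616 to 90864 (0.18 ± 0.12, adjusted p = 0.314). None of *Ctss*, *Ctsb*, *Ctsd*, *Lgals3* and *Gpnmb* passed with all 15 tumors in the fit.

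*Cybb* encodes gp91phox, the catalytic subunit of the phagocyte NADPH oxidase, which makes superoxide. The count of *Cybb* was 6228, 3232, 5385, 3395 and 4689 in control tumors 1 to 5, 3228, 3718, 3294, 3629.5 and 3033 in clone 4 tumors 6 to 10, and 2737, 2706, 1829.9, 3029 and 3006 in clone 18 tumors 11 to 15. The clone 18 tumors were below all others, tumor 13 by the widest margin, and the control tumors split into 3 high and 2 at the level of clone 4. The difference was -0.58 ± 0.16 (adjusted p = 0.0143; exact permutation p = 0.00533), and 0.0592 without tumor 1. Of 4 partner genes, 2 were lower (12.9% of all genes tested) and none higher (9.23%). *Ncf1*, the organizer p47phox, was 1881 to 2376 in control and 1524 to 1907 in knockout tumors (-0.34 ± 0.07, adjusted p = 0.0024), and *Rac2*, the GTPase of the complex in blood cells, 1074 to 1834 and 671 to 1375 (-0.46 ± 0.15, adjusted p = 0.0419). *Cyba*, the gene of p22phox, which pairs with *Cybb* in the membrane, did not pass (-0.25 ± 0.09, adjusted p = 0.0671), nor did *Ncf4* (-0.16 ± 0.10, adjusted p = 0.313). *Ncf1* held with each tumor left out and without the tumors with muscle RNA (adjusted p = 0.023), whereas *Rac2* was lost when any 1 of tumors 1, 3, 4, 5, 9, 11, 13, 14 and 15 was left out (adjusted p up to 0.140). Without the tumors with muscle RNA the adjusted p of *Rac2* was 0.271.

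The knockout clones were next set apart, in a limma fit with 1 term for each of the 3 groups, where both clones are set against the same control tumors. In clone 4 against control, 5 of the 37 genes were lower (10% of all genes tested) and 2 higher (6.79%), with a median log2 difference of -0.23. In clone 18 against control, 17 were lower (14.2% of all genes tested) and 3 higher (10.4%), with a median of -0.35. Without control tumor 1 or without tumor 9 the clone 4 count of 7 became 4, and without control tumor 2 it became 14. Over all genes tested these fits called 2699, 2562 and 2510. The clone 18 count of 20 was 15 to 22 with 1 tumor left out. Without the 5 tumors that held muscle RNA, which leaves 3 tumors of clone 4 and 2 of clone 18, the counts were 2 and 7, and the medians were -0.27 and -0.34. For clone 4 these were *Cd14* and *Spp1*, both higher, and none was lower. For clone 18 they were *Csf1r*, *Itgam*, *C1qc*, *Cybb* and *Apoe*, which were lower, and *Cd14* and *Spp1*, which were higher. Over all 18250 genes tested the same fit called 2416 in clone 4 (1440 lower) and 3147 in clone 18 (1869 lower).

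For *Csf1r* the log2 difference from control was -0.40 ± 0.12 in clone 4 (adjusted p = 0.0294) and -0.80 ± 0.12 in clone 18 (adjusted p = 0.000144). For *Itgam* it was -0.38 ± 0.11 (adjusted p = 0.0219) and -0.65 ± 0.11 (adjusted p = 0.000331). For *C1qc* it was -0.39 ± 0.10 (adjusted p = 0.0111) and -0.69 ± 0.10 (adjusted p = 0.000101). These genes were lower in each clone, as was *C1qb*, whose clone 4 difference was -0.33 ± 0.11 (adjusted p = 0.0475) and whose clone 18 difference was -0.59 ± 0.11 (adjusted p = 0.00102). *Spp1* was higher by 0.82 ± 0.09 in clone 4 (adjusted p = 1.06e-05) and 0.58 ± 0.09 in clone 18 (adjusted p = 0.000236), and *Cd14* by 0.52 ± 0.10 (adjusted p = 0.00118) and 0.31 ± 0.10 (adjusted p = 0.0239). The clone 4 call was lost for *Csf1r* when any 1 of tumors 1, 3, 8, 9 and 10 was left out (adjusted p = 0.0528 to 0.0757), for *Itgam* with tumors 1, 6 and 9 (0.0563 to 0.0617) and for *C1qb* with tumors 1, 3, 5, 7, 8, 9 and 10 (0.057 to 0.128). Without the 5 tumors with muscle RNA the adjusted p of clone 4 against control was 0.235 for *Csf1r*, 0.0566 for *Itgam*, 0.0946 for *C1qc* and 0.164 for *C1qb*, and that of clone 18 was 0.0674 for *C1qb*. The clone 18 call of *Cd14* was lost without tumor 2, 13 or 15 (adjusted p = 0.0571 to 0.062).

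Against control, clone 18 tumors were also lower in *Aif1* (-0.98 ± 0.20, adjusted p = 0.00163), *Siglec1* (-0.82 ± 0.19, adjusted p = 0.00474), *Cybb* (-0.76 ± 0.17, adjusted p = 0.00291), *Mrc1* (-0.62 ± 0.17, adjusted p = 0.0134) and *Fcgr1* (-0.58 ± 0.16, adjusted p = 0.0114). The same comparison gave -0.54 for *Laptm5*, -0.51 for *C1qa*, -0.51 for *Apoe* and -0.48 for *Tyrobp*, with adjusted p of 0.00276, 0.00238, 0.00528 and 0.0101. These 9 calls held with each single tumor left out. Without the 5 tumors with muscle RNA only *Cybb* (adjusted p = 0.0191) and *Apoe* (adjusted p = 0.00295) of the 9 passed. The other 7 did not, with adjusted p of 0.0694 for *Aif1*, 0.0979 for *Siglec1*, 0.22 for *Mrc1*, 0.0848 for *Fcgr1*, 0.0501 for *Laptm5*, 0.0838 for *C1qa* and 0.212 for *Tyrobp*. The remaining lower genes were *Fcgr3* (-0.35, adjusted p = 0.0258), *Fcgr4* (-0.67, adjusted p = 0.0399), *Mpeg1* (-0.50, adjusted p = 0.0472) and *Ctss* (-0.36, adjusted p = 0.0497), whose calls did not hold throughout. That of *Fcgr3* was lost when any 1 of tumors 1, 3, 5, 13 and 14 was left out (adjusted p up to 0.0762), that of *Fcgr4* with tumors 1, 5, 11, 12 and 13 (up to 0.114), and those of *Mpeg1* and *Ctss* with tumors 1, 3, 5, 11, 12, 13, 14 and 15 (up to 0.134 and 0.139). Without the tumors with muscle RNA *Fcgr3*, *Fcgr4*, *Mpeg1* and *Ctss* did not pass in clone 18 (adjusted p = 0.181, 0.0666, 0.129 and 0.189).

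Compared directly, clone 18 and clone 4 differed in 3 of the 37 genes, 1 lower in clone 18 (2.13% of all genes tested) and 2 higher (2.49%). *Aif1* differed by -0.76 ± 0.20 (adjusted p = 0.0352). The count of *Cd68* was 10674, 14234, 10978, 13258 and 13062 in control tumors 1 to 5, 10776, 9192, 13854, 10406 and 12451 in clone 4 tumors 6 to 10, and 16054, 15759, 16887, 13739 and 18219 in clone 18 tumors 11 to 15. Clone 18 exceeded clone 4 in *Cd68* by 0.52 ± 0.11 (adjusted p = 0.00998), and exceeded control by 0.38 ± 0.11 (adjusted p = 0.018), while clone 4 was -0.14 ± 0.11 from control (adjusted p = 0.445). The count of *Trem2* was 2206, 1458, 2273, 1705 and 1876 in control tumors 1 to 5, 1216, 1481, 1463, 1472 and 1400.2 in clone 4 tumors 6 to 10, and 1935, 1785, 1733, 1739 and 1852 in clone 18 tumors 11 to 15. Clone 4 tumors lay below all clone 18 tumors, and the difference was 0.37 ± 0.10 (adjusted p = 0.0491), with clone 4 at -0.42 ± 0.10 from control (adjusted p = 0.0083) and clone 18 at -0.06 ± 0.10 from control (adjusted p = 0.743). Only the call of *Cd68* held with each of the 10 tumors left out (adjusted p up to 0.0313). *Trem2* missed the threshold in all 10 such fits (adjusted p = 0.0644 to 0.119) and *Aif1* in 8, when any 1 of tumors 6, 7, 8, 9, 11, 13, 14 and 15 was left out (adjusted p = 0.0604 to 0.0826). *Cd68* against control also missed it without tumor 1 (adjusted p = 0.0549) or tumor 3 (adjusted p = 0.0508). None of the 3 differences between the clones passed without the 5 tumors with muscle RNA, with adjusted p of 0.136 for *Cd68* (0.55), 0.284 for *Aif1* and 0.331 for *Trem2*. In that fit the 1 gene past the threshold was *Apoe* (-0.62, adjusted p = 0.0486), lower in clone 18. The adjusted p of *Cd68* in clone 18 against control was then 0.097, and that of *Trem2* in clone 4 against control 0.0596.

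For each of the 12 genes lower in knockout tumors, the mean of clone 18 was below that of clone 4. This held for 25 of all 37 genes and 9525 of the 18250 genes tested. The 12 were picked by a difference to which clone 18 contributed, which favors that order. None of the 12 passed the threshold between the clones with all tumors in the fit. The nearest to it was *Csf1r*, with a difference of -0.40 ± 0.12 (adjusted p = 0.0656), with no overlap between the 5 tumors of each clone. *Cybb* and *Spp1* did not overlap between the clones either, clone 18 being the lower in both (-0.36 ± 0.17, adjusted p = 0.249 and -0.24 ± 0.09, adjusted p = 0.17). *Aif1* and *Trem2* did not overlap between the clones either. Any gene without overlap of 5 against 5 tumors has an exact permutation p of 0.00794, the smallest that the 252 splits allow. The value therefore adds nothing to the lack of overlap, and the share of all genes tested that showed it is not given here.

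Per kilobase of exon, which allows levels to be set between genes, *Spp1* was the most abundant of the 37, with a mean of 55956 normalized counts per kb over the 15 tumors. *Lyz2* followed with 46752, *Ctsd* with 31309, *Lgals3* with 18682 and *Apoe* with 17822. The order of the first 2 differed between groups: in control tumors *Lyz2* (55670.3 per kb) was above *Spp1* (39483 per kb), and in clone 4 and clone 18 *Spp1* (69501 and 58882 per kb) was above *Lyz2* (42293 and 42292 per kb). *C1qa* had 12892, *C1qb* 6363 and *C1qc* 3859.7 normalized counts per kb. The receptor *Csf1r* had 2163 and the factor *Spi1* 355 per kb. At the low end were *Cd163* with 84.7, *Vsig4* with 67.8 and *Marco* with 2.47 per kb.

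**Figure D3:**
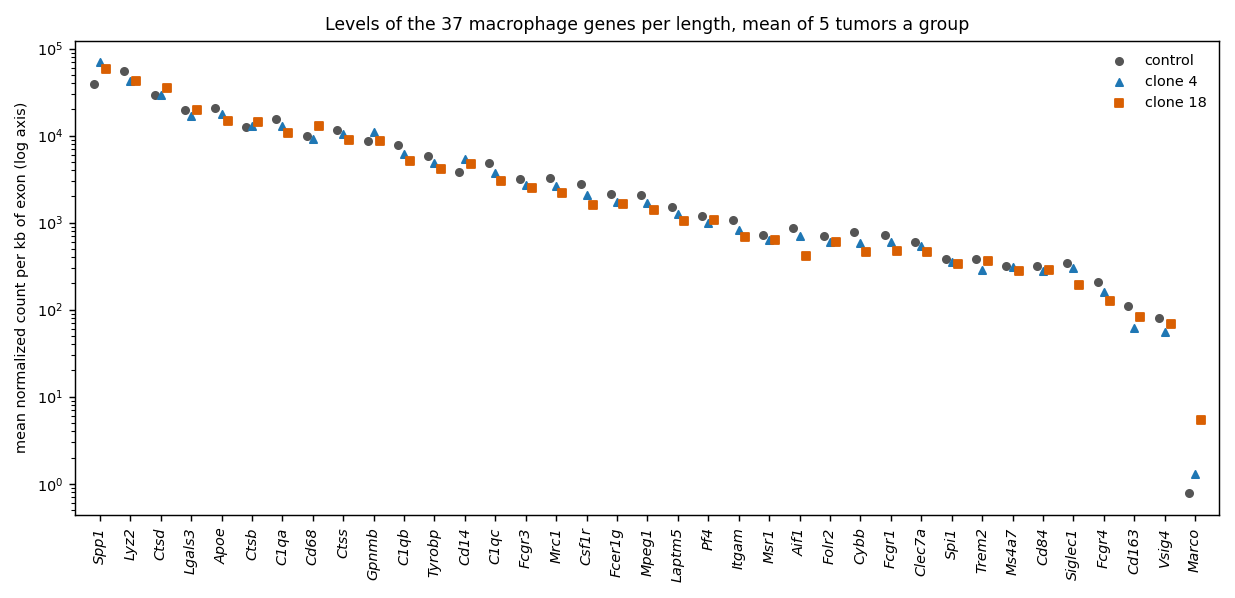
Mean normalized count per kb of exon (log axis) of the 37 macrophage genes in 5 control, 5 clone 4 and 5 clone 18 tumors, ordered by the mean of all 15. The level runs from *Spp1* and *Lyz2* at the top to *Marco* at 2.47 per kb, and the groups lie close together beside the span between genes.

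The genes differed in how they varied among tumors of the same group. As a description, the deviation of each gene from its group mean (log2 scale) was correlated over the 15 tumors with that of the mean of *Csf1r*, *Spi1*, *Laptm5* and *Mpeg1*, leaving out the gene itself. Pearson's r was 0.88 for *Aif1*, 0.86 for *Ctss*, 0.85 for *Fcgr1*, 0.83 for *C1qa* and 0.81 for *Cybb*, the 5 genes at or above 0.8. Another 17 lay between 0.5 and 0.8, with *Trem2*, *Tyrobp*, *Clec7a*, *Lyz2* and, although it rose between groups, *Spp1* (0.71). *Cd14* (0.15), *Mrc1* (0.30), *Folr2* (0.04), *Pf4* (0.13) and *Msr1* (0.15) had lower r. In 8 genes r was below 0, among them *Cd163* (-0.49), *Cd68* (-0.48), *Lgals3* (-0.45), *Gpnmb* (-0.42) and *Vsig4* (-0.37). The points share libraries and size factors, and the control tumors spread the widest, with a median coefficient of variation over the genes of 16.9%, against 13.0% in clone 4 and 12.4% in clone 18.

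**Figure D4:**
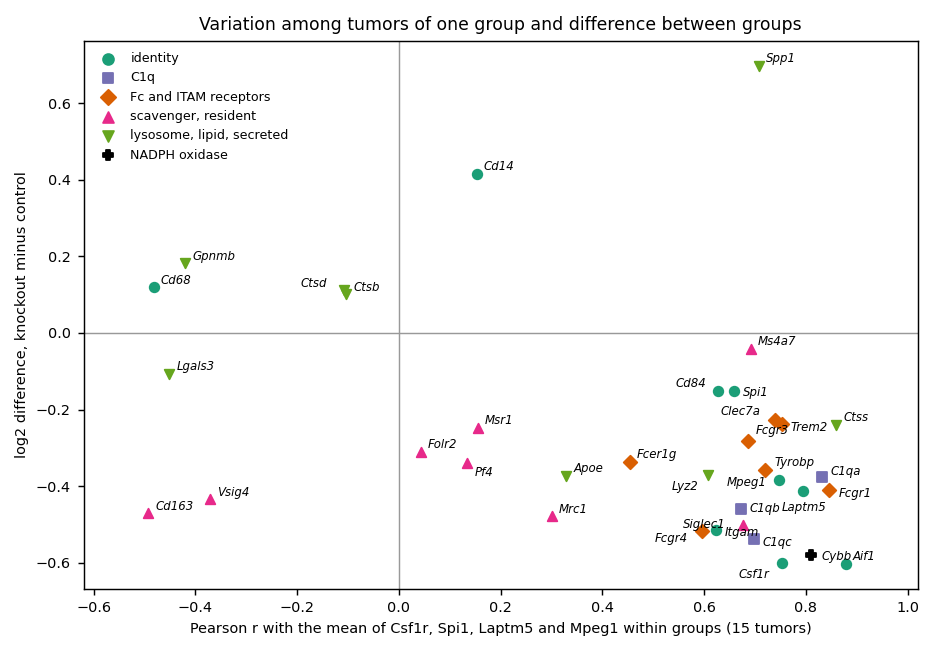
For 36 macrophage genes (*Marco* is left out), Pearson's r over 15 tumors between deviations from the group mean and those of the mean of *Csf1r*, *Spi1*, *Laptm5* and *Mpeg1* (horizontal), and the log2 difference between knockout and control tumors (vertical); symbols give the role. *Spp1* stands alone at the upper right, with an r of 0.71 and a difference of 0.70, and *Cd68*, *Gpnmb*, *Ctsb* and *Ctsd* lie left of 0 with differences above 0.

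The 10 other genes whose deviations followed that mean most closely, among 16458 with a mean of at least 10, were *Marcks*, *Evl*, *Atp10d*, *Fyb*, *Ptprc*, *Parp11*, *Csk*, *Tgfbr2*, *Cadm1* and *Ctsh*, with r from 0.92 to 0.95. *Ptprc* encodes CD45, found on all white blood cells. Its mean was 4743 in control, 4379 in clone 4 and 3251 in clone 18 tumors, with -0.28 between knockout and control (adjusted p = 0.288). Clone 18 tumors were lower than control in *Ptprc* (-0.50, adjusted p = 0.0488). That call was lost in 7 of the 10 fits that left out a tumor (adjusted p up to 0.140) and without the tumors with muscle RNA (adjusted p = 0.215). Of the 10, *Cadm1*, the gene of an adhesion molecule, was past the threshold between knockout and control (-0.66, adjusted p = 0.0285). In clone 18 against control *Cadm1* (-0.98, adjusted p = 0.00132), *Fyb* (-0.45, adjusted p = 0.0367) and *Tgfbr2* (-0.42, adjusted p = 0.0357) were lower beside *Ptprc*, and the rest of the 10 did not pass.

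Among the ligands and receptors around CSF1R, 1 of 5 genes was lower in knockout tumors (12.9% of all genes tested) and none higher (9.23%). *Il34*, a ligand of CSF1R, was 731, 803, 669, 694 and 599.5 in control tumors 1 to 5, 408, 588, 409, 395 and 499 in clone 4 tumors 6 to 10, and 265, 267, 305, 339 and 369 in clone 18 tumors 11 to 15. The 3 groups did not overlap at all, control being the highest and clone 18 the lowest. The means were 699 ± 75.4 (SD, n = 5) in control, 459.7 ± 82.8 (n = 5) in clone 4 and 309 ± 45.3 (n = 5) in clone 18 tumors. *Il34* differed by -0.90 ± 0.16 between knockout and control (adjusted p = 0.000662), by -0.61 ± 0.13 in clone 4 (adjusted p = 0.00296), by -1.18 ± 0.13 in clone 18 (adjusted p = 5.7e-06), and by -0.57 ± 0.13 between clone 18 and clone 4 (adjusted p = 0.0157). *Csf1*, the other ligand, was 4899 to 5685 in control, 3922 to 5621 in clone 4 and 3181 to 4343 in clone 18 tumors. It missed the threshold over both clones (-0.26 ± 0.10, adjusted p = 0.0664) and was lower in clone 18 (-0.39 ± 0.10, adjusted p = 0.00787), whose tumors were all below the control tumors. Of the GM-CSF pathway, *Csf2* (0.09 ± 0.25, adjusted p = 0.84) and *Csf2ra* (0.06 ± 0.13, adjusted p = 0.807) did not pass, and *Csf2rb*, the beta chain, was higher in clone 18 than in control (0.28 ± 0.09, adjusted p = 0.0345), with 0.31 ± 0.09 between the clones (adjusted p = 0.0642). The call of *Csf2rb* was lost when any 1 of tumors 2, 3, 4, 11, 12 and 13 was left out (adjusted p up to 0.0891), and those of *Il34* and *Csf1* held with each tumor left out. Without the tumors with muscle RNA *Il34* passed between knockout and control (-0.87, adjusted p = 0.0086) and not between the clones (-0.69, adjusted p = 0.0865).

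Downstream of the ITAM adapters, 5 of 11 genes were lower in knockout tumors (12.9% of all genes tested) and none higher (9.23%). They were *Ptpn6*, the phosphatase SHP-1 (-0.59 ± 0.11, adjusted p = 0.00106), *Plcg2*, a phospholipase (-0.27 ± 0.07, adjusted p = 0.0081), *Vav1*, an exchange factor (-0.40 ± 0.13, adjusted p = 0.0332), *Inpp5d*, the lipid phosphatase SHIP1 (-0.36 ± 0.11, adjusted p = 0.0269), and the inhibitory *Fcgr2b* (-0.27 ± 0.08, adjusted p = 0.0263). Activating and inhibitory parts are both among them. The calls of *Ptpn6* and *Plcg2* held with each tumor left out, that of *Vav1* was lost without tumor 1, 3 or 5 (adjusted p up to 0.121), that of *Inpp5d* without tumor 1 or 3 (up to 0.102) and that of *Fcgr2b* without tumor 1 or 4 (up to 0.0990). Without the tumors with muscle RNA *Ptpn6* (-0.47, adjusted p = 0.0212) and *Fcgr2b* (-0.29, adjusted p = 0.0407) passed, and *Plcg2*, *Vav1* and *Inpp5d* did not (adjusted p = 0.0777, 0.113 and 0.155). *Syk*, the kinase that binds ITAMs, did not pass (-0.10 ± 0.12, adjusted p = 0.623). *Btk*, a kinase of the same pathway, was lower in clone 18 than in control (-0.51 ± 0.18, adjusted p = 0.0432), a call lost when any 1 of tumors 1, 3, 5, 11, 13 and 14 (adjusted p up to 0.109) or all those with muscle RNA (adjusted p = 0.196) were left out. Of 7 lineage transcription factors 2 were lower (12.9% of all genes tested), *Irf8* (-0.41 ± 0.10, adjusted p = 0.00673) and *Maf* (-0.21 ± 0.07, adjusted p = 0.0377). *Irf8* held with each tumor left out, and *Maf* was lost when any 1 of tumors 1, 2, 4, 5, 7, 8, 9, 10 and 14 was left out (adjusted p up to 0.129). Without the tumors with muscle RNA the adjusted p was 0.0299 for *Irf8* and 0.141 for *Maf*. *Cebpa*, a factor of the myeloid lineage, was higher in clone 18 than in control (0.54 ± 0.08, adjusted p = 0.000136) and than in clone 4 (0.48 ± 0.08, adjusted p = 0.00157). *Cebpb*, of the same family, was higher in clone 18 than in control (0.37 ± 0.11, adjusted p = 0.0183), and held with each tumor left out. Without the tumors with muscle RNA the difference of *Cebpa* from control passed (adjusted p = 0.00981), whereas that between the clones (0.34, adjusted p = 0.128) and that of *Cebpb* from control (adjusted p = 0.0936) did not.

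Of 14 other macrophage genes, 5 were lower (12.9% of all genes tested) and none higher (9.23%) in knockout tumors. The count of *Cx3cr1*, the fractalkine receptor of monocytes and macrophages, was 9738, 4935, 9596, 4985 and 7750.2 in control tumors 1 to 5, 4499, 6289.6, 4692, 5040.4 and 2612 in clone 4 tumors 6 to 10, and 3429.9, 3194, 2558, 3276 and 3474 in clone 18 tumors 11 to 15. Clone 18 tumors were all below the control tumors, and tumor 10 was the lowest of clone 4. The difference was -0.92 ± 0.21 (adjusted p = 0.00463). *Hpgd*, which breaks down prostaglandins, was 102 to 544 in control, 105 to 179.8 in clone 4 and 19.6 to 86.1 in clone 18 tumors (-1.52 ± 0.48, adjusted p = 0.0312). Between the clones *Hpgd* differed by -1.67 ± 0.40 (adjusted p = 0.022), lower in clone 18, a call lost without tumor 6, 9, 13 or 14 (adjusted p up to 0.0591) or without the tumors with muscle RNA (adjusted p = 0.229). Between knockout and control *Hpgds*, which makes prostaglandin D, differed by -0.73 ± 0.18 (adjusted p = 0.00661), *Pld4* by -0.53 ± 0.16 (adjusted p = 0.0234) and *Cd33* by -0.52 ± 0.16 (adjusted p = 0.0258). *Cx3cr1* and *Hpgds* held with each tumor left out, whereas *Pld4* and *Cd33* were lost without tumor 1, 3 or 5 (adjusted p up to 0.0830 and 0.0906) and *Hpgd* without tumor 1, 3, 5 or 14 (up to 0.109). None of the 5 passed between knockout and control without the tumors with muscle RNA, where the adjusted p was 0.0562 for *Cx3cr1*, 0.131 for *Hpgd*, 0.0628 for *Hpgds*, 0.167 for *Pld4* and 0.0519 for *Cd33*. *Adgre1*, the gene of F4/80, was 3155 to 6864 in control and 2362 to 4561 in knockout tumors and did not pass (-0.39 ± 0.18, adjusted p = 0.135). Against control, clone 18 tumors were lower in *Adgre1* (-0.61 ± 0.18, adjusted p = 0.0204) and in 2 relatives of *Ms4a7*, *Ms4a6c* (-0.80 ± 0.17, adjusted p = 0.00301) and *Ms4a4a* (-1.13 ± 0.27, adjusted p = 0.0048). The call of *Adgre1* was lost without tumor 1, 3 or 14 (adjusted p up to 0.0614), and without the tumors with muscle RNA none of these 3 passed in clone 18 (adjusted p = 0.312, 0.181 and 0.0665).

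**Figure D5:**
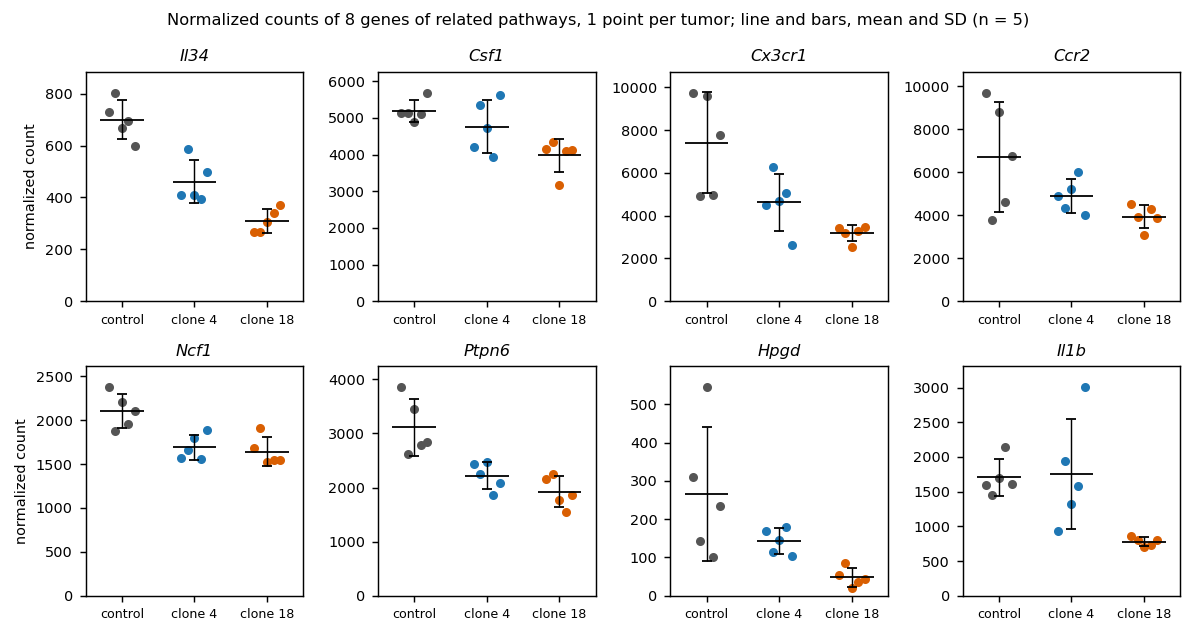
Normalized counts of 8 genes of related pathways in each tumor, with the mean and SD of the 5 tumors of a group; each axis starts at 0. The 3 groups do not overlap for *Il34*, and the clone 18 tumors lie below all control tumors for *Csf1*, *Cx3cr1*, *Ptpn6*, *Hpgd* and *Il1b*. The share of all genes tested with these patterns is not given here.

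Of 14 lysosome genes that all cells use, 2 were higher (9.23% of all genes tested) and none lower (12.9%). The 2 were *Lipa*, the acid lipase (0.30 ± 0.09, adjusted p = 0.0164), and *Hexa*, a hexosaminidase subunit (0.27 ± 0.08, adjusted p = 0.0263). *Lipa* was lost without tumor 2 (adjusted p = 0.0511) and *Hexa* without tumor 3 or 5 (up to 0.0725). Both passed without the tumors with muscle RNA (adjusted p = 0.0446 and 0.0203). *Mitf*, a transcription factor of the TFE family that acts on lysosomal genes, was lower in clone 18 than in control (-0.87 ± 0.11, adjusted p = 1.96e-05) and than in clone 4 (-1.07 ± 0.11, adjusted p = 7.99e-06). Both differences of *Mitf* passed without the tumors with muscle RNA (adjusted p = 0.00823 and 0.0274). Of 13 genes of inflammatory or alternative activation none passed between knockout and control by limma, 0 had an unadjusted p under 0.05 and 0 were called by edgeR or DESeq2. *Il1b*, the gene of interleukin-1 beta, was lower in clone 18 than in control (-1.12 ± 0.21, adjusted p = 0.00101) and than in clone 4 (-1.06 ± 0.21, adjusted p = 0.00621). Without the tumors with muscle RNA it passed against control (adjusted p = 0.00732) and not against clone 4 (-0.84, adjusted p = 0.133). *Arg1*, the gene of arginase 1, was 41.7 to 518 in control and 24.1 to 4411 in knockout tumors (1.52 ± 1.01, adjusted p = 0.318). *Nos2*, the gene of the inducible nitric oxide synthase, was 439 to 1637 and 329 to 1726 (0.21 ± 0.38, adjusted p = 0.752).

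Some markers of other cell types also differed between knockout and control tumors, and their part in the results was not tested. Of all genes tested 12.9% were lower and 9.23% higher in that comparison, the shares to set beside the counts that follow. In the dendritic cell, pan-leukocyte, endothelial and tumor epithelium lists the count was 1 gene each. The summed count of 5 monocyte genes was 6649 to 13186 in control, 7498 to 8980.5 in clone 4 and 5981 to 8523 in clone 18 tumors, with 2 of the 5 lower in knockout tumors: *Ccr2*, the monocyte chemokine receptor (-0.54 ± 0.19, adjusted p = 0.0475), and *Ly6c2* (-1.15 ± 0.34, adjusted p = 0.0225). *Ccr2* was lost in 11 of the 15 fits that left out a tumor (tumors 2, 4, 8 and 9 aside) and *Ly6c2* without tumor 1, 2 or 4, and neither passed without the tumors with muscle RNA (adjusted p = 0.132 and 0.0658). The 7 neutrophil genes, whose cells share *Itgam*, *Cybb* and *Fcer1g* with macrophages, summed to 794 to 1832, 531 to 2037 and 588 to 854. Of these 2 were lower, *Csf3r* and *Ly6g*, and *Ly6g*, the defining marker, was at most 2.3 in any tumor and 0 in all clone 18 tumors. The call of *Csf3r* was lost without tumor 1 or 5 (adjusted p up to 0.0633). Dendritic cell genes (7) summed to 346 to 1236, 585 to 812 and 476 to 838, with *Clec9a* lower, a call lost in 12 of the 15 fits that left out a tumor (adjusted p up to 0.144) and without the tumors with muscle RNA (adjusted p = 0.123).

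T cell genes (6) summed to 429 to 1199 in control, 448 to 686 in clone 4 and 456 to 551 in clone 18 tumors, with *Cd3d* and *Cd3g* lower. NK cell genes (4) summed to 57.3 to 377, 69.7 to 214 and 20.9 to 88.6. Between knockout and control none was past the threshold by limma, 0 had an unadjusted p under 0.05, and 0 were called by edgeR and 1, *Klrk1*, by DESeq2. In clone 18 against control limma called *Klrk1* lower (-1.26, adjusted p = 0.0477). That call was lost in 7 of the 10 fits that left out a tumor (adjusted p up to 0.138) and without the tumors with muscle RNA (adjusted p = 0.0657). The 4 B cell genes in the table summed to 777 to 2321, 452 to 879 and 184 to 450, with *Cd79a*, *Cd79b* and *Ighm* lower. *Ighm* was lost without tumor 1, 3 or 5 (adjusted p up to 0.0966) and without the tumors with muscle RNA (adjusted p = 0.0857). Pan-leukocyte genes (7) summed to 23974 to 37078, 22144 to 32959 and 20235 to 29688, with *Coro1a* lower, a call lost in 10 of the 15 fits that left out a tumor (adjusted p up to 0.168) and without the tumors with muscle RNA (adjusted p = 0.154). In clone 18 against control 2 of the 7 were lower (14.2% of all genes tested), *Coro1a* (-0.49, adjusted p = 0.0113) and *Ptprc* (-0.50, adjusted p = 0.0488). Neither passed there without the tumors with muscle RNA (adjusted p = 0.125 and 0.215). Endothelial genes (6) summed to 17069 to 23490, 13985 to 19946 and 12891 to 17427, and the lower gene was *Stab1*, which macrophages also express (-0.53 ± 0.12, adjusted p = 0.00492). Of the 7 fibroblast genes, which summed to 47301 to 79682, 17472 to 182450 and 59196 to 120627, 0 passed by limma, 0 had an unadjusted p under 0.05 and 0 were called by edgeR or DESeq2. Tumor epithelium genes (5) summed to 114007 to 137719, 97407 to 127470 and 103589 to 119778, with *Krt18* lower (-0.32 ± 0.09, adjusted p = 0.0197), which was lost without tumor 2 or 4 (adjusted p up to 0.0644) and without the tumors with muscle RNA (adjusted p = 0.092). Of the 2 Langerhans cell genes *Epcam*, which carcinoma cells also express, was higher (1.23 ± 0.26, adjusted p = 0.00286) and *Cd207* did not pass (-0.06 ± 0.34, adjusted p = 0.927). Of the 5 mast cell, 3 adipocyte, 3 red cell and 2 keratinocyte genes, 0 passed between knockout and control by limma. None of them had an unadjusted p under 0.05, and 0 were called by edgeR or DESeq2. Of the 4 skeletal muscle genes 0 passed by limma, 2 had an unadjusted p under 0.05, and edgeR and DESeq2 called all 4 higher in knockout tumors. Their summed count was 4.7 to 69.7 in control, 9 to 950.1 in clone 4 and 16 to 1338 in clone 18 tumors.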

How the data were processed

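RNA was sequenced from 15 tumors, 5 of each group, and 0 columns of the table were left unassigned. The deposited values are a signal: read counts per gene that the authors had obtained with TopHat2 on mm10 and HTSeq, divided by DESeq size factors and given to 1 decimal. Tool versions, annotation and strand setting are not given in the sources used here. Whole reads were recovered from the steps between low values (100% of values within 0.06 of a whole number, for values up to 8000), which gave each tumor's depth. The labels do not say that each tumor came from a different mouse, and p-values measure the spread between these tumors.

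Differences were tested on log2(normalized count + 1) with limma 3.58.1 (trend) in R 4.3.3, over the 18250 genes not at 0 in all tumors (29 were). P was adjusted by the Benjamini-Hochberg method over all of them, with a threshold of 0.05. A fold on this scale understates the change of low genes. Exact permutation tests were two-sided. Any pair of same-group tumors (30 in all) had counts that differed by more than sampling noise, with a chi-square of 17.69 to 164.2 for every degree of freedom. The analysis was tested on simulated data.

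A planned comparison with a reference of other macrophage genes, and some genes of the pathway lists, are not reported here. The 37 genes, the pathway lists and the cell type lists were chosen with earlier results of these data known. All 37 genes are described; other genes are named from the lists when past the threshold between knockout and control or paired with a member, or as 1 of the 10 most like genes. For the pathway lists those past it in clone 18 alone are named too. *Acta1*, *Klrk1*, *Arg1*, *Nos2* and *Cd207* were named after their values were seen. Alternatives were other pseudocounts (0.1 and 5), a mean of at least 10, upper quartile scaling, count tests of the recovered reads (DESeq2 1.42.0 and edgeR 4.0.16), a two-sample test of each gene, each tumor left out and, chosen after seeing the data, the muscle-bearing tumors left out (*Acta1* of 100 or more).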

Additional observations from a re-analysis of the deposited data

Results flagged for a closer look

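In a test of whether the highest or lowest of 5 tumors stood far from the rest of its group, 4 of the 111 groups (37 genes in 3 groups) held such a tumor, where chance gives about 1 in 20, or 5.55. *Fcgr4* was 311.9 in clone 4 tumor 10, against 152.4 to 197.9 in the other clone 4 tumors. *Mrc1* was 20428.2 in clone 18 tumor 12, against 10958.8 to 13363.4 in the others of that clone. *Lyz2* was 43628.7 in clone 18 tumor 14, against 56297.3 to 60716.7. *Cybb* was 1829.9 in clone 18 tumor 13, against 2705.6 to 3029.1.

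The clones differed from each other in 3 genes by limma. *Aif1* was -0.76 in clone 18 minus clone 4 (log2), *Cd68* 0.52 and *Trem2* 0.37. With each tumor left out in turn, *Cd68* stayed past the threshold in all 10 fits, *Aif1* in 2 and *Trem2* in 0. Without the 5 tumors with muscle RNA none of the 3 passed, with adjusted p of 0.136 for *Cd68*, 0.284 for *Aif1* and 0.331 for *Trem2*.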

How the results depend on the processing

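The counts here are of all 37 genes in each fit. Between knockout and control tumors, the 14 past the threshold became 9 by the two-sample test, 19 by DESeq2 and 7 to 19 with 1 tumor left out. For clone 4 against control, the 7 became 3 by the two-sample test, 10 by DESeq2 and 4 to 14 with 1 tumor left out. For clone 18 against control, the 20 became 13 by the two-sample test, 23 by DESeq2 and 15 to 22 with 1 tumor left out. Between the clones, the 3 became 6 by DESeq2 and 1 to 3 with 1 tumor left out. Without the tumors that held muscle RNA the counts were 4, 2, 7 and 1 in these comparisons, the 1 between the clones being *Apoe*, which was not among the 3. The other pseudocounts, the filter on low means, upper quartile scaling and edgeR kept each of these counts within 1.5 times. *Ms4a7*, at -0.04 between knockout and control, changed sign without tumor 1 (0.06), 3 (0.10), 5 (0.0051) or 14 (0.00066) and without the muscle tumors (0.033), ranged from -0.26 to 0.10 with 1 tumor left out, and was never past the threshold. The cause of these changes was not tested, and the fits that leave tumors out also have fewer samples.

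Over all genes, edgeR called 4105 and DESeq2 4615 against 4040 by limma between knockout and control tumors. Without the muscle tumors limma called 3073 there, 2416 in clone 4 against control and 3147 in clone 18 against control. Between the clones limma called 844, the two-sample test 343, DESeq2 1359 and limma without the muscle tumors 278. No paired analysis was possible because no replicate numbers link tumors of different groups. Depth limited *Marco* most, the only gene of the 37 with a mean below 10 normalized counts.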
